A study of Mus musculus with 24 samples.

Results

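The Notch receptors Notch1, Notch2 and Notch3, their ligands Jag1, Jag2 and Dll1, and the target genes Hes1, Hes5 and Hey1 were followed through spinal cord injury (SCI), both in oligodendrocytes (OLs) and in the whole tissue. These 9 genes were taken by name from a table of 21965 genes, and all 9 passed the filter on low counts (a sum of at least 10 counts over the libraries), which 17167 genes passed. The tissue came from OL-Ribotag mice. In these mice a tamoxifen-induced Cre active in OLs switches on a hemagglutinin (HA) tag on the ribosomal protein RPL22, so that HA pulldown enriches RNA carried by OL ribosomes. All groups carried these alleles and had been given tamoxifen, controls included. The driver of this Cre is also active in Schwann cells. Per the study's methods, naive tissue was collected together with the last time point, so naive mice were older than those of the early ones. Female mice, 10 to 12 weeks old in the labels, were left uninjured (naive) or received a T9 contusion of 50 kdyn and were studied on day post-injury (dpi) 2, 10 or 42. The 4 groups were each represented by 3 tissue pools (2 mice per pool), from which HA-bound RNA (OL) and input (total RNA) were sequenced separately, 24 libraries in all.

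Notch receptors are transmembrane proteins that meet ligands of the Jagged and Delta-like families on neighbouring cells. Ligand binding lets ADAM sheddases and then gamma-secretase cut the receptor, and the freed intracellular domain enters the nucleus, joins the DNA-binding protein RBPJ and Mastermind-like coactivators, and turns on repressors of the Hes and Hey families. In the oligodendrocyte lineage, Notch1 signaling driven by Jag1 is known for holding precursors back from maturation. In the adult cord the pathway is also known from astrocytes, ependymal cells and vessel walls, where Notch3 is the receptor of pericytes and smooth muscle.

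The promoters are shown for Hes5, a textbook RBPJ target, and for the receptor and ligands whose levels changed most clearly, Notch2, Jag1 and Dll1. The 250 bases before the start site are given on the gene's own strand, from RefSeq on GRCm38.p6, with capitals marking matches to the RBPJ site GTGGGAA or to the N box CACNAG, a site bound by Hes proteins, on either strand. The Hes5 window is chr4:154960673-154960922 on the + strand, that of Notch2 chr3:98013288-98013537 on the + strand, that of Jag1 chr2:137116521-137116770 on the - strand, and that of Dll1, for the more upstream of its 2 listed starts, chr17:15376933-15377182 on the - strand.
Hes5: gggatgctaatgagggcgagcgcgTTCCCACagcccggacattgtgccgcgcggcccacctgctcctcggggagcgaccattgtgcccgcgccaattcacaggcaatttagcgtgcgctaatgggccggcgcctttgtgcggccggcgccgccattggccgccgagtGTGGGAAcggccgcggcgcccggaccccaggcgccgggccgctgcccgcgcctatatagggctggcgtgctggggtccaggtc
Notch2: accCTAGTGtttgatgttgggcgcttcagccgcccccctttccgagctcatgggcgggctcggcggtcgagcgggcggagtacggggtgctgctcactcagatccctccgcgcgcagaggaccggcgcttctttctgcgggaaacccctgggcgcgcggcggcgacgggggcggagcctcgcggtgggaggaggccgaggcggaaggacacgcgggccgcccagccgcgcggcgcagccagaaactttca
Jag1: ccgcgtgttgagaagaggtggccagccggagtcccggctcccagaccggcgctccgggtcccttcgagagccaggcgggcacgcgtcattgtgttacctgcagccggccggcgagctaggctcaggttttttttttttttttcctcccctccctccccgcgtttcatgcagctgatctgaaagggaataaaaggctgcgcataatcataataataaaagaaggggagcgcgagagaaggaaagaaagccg
Dll1: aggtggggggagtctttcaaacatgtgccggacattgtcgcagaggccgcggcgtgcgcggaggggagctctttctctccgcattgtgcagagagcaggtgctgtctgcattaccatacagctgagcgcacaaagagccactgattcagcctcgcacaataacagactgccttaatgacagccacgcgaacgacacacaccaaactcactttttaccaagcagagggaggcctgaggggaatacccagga
RefSeq entries were found for 7 of the 9 members, and Hes1 and Hey1 had no entry. The Hes5 promoter held 2 matches to GTGGGAA, starting 226 bases before the start on the reverse strand and 83 bases before it on the forward strand. No other window of these members held this string, which 5.42% of the 32851 promoter windows of the same length did. The core TGGGAA, which lies within that string, was found in no further window of these members and in 21.6% of promoter windows. The N box was found in the windows of Notch1, Notch2 and Notch3, and in 36.7% of the promoter windows. No window of these members held both motifs, and such matches are a description of sequence only.

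Libraries held 29075211 to 32987841 counts for OL and 25840127 to 29050061 for total RNA. Levels are given as CPM (counts scaled to a common library size) after TMM scaling, and 3 libraries per group were the replicates (n = 3). The summed level of 8 oligodendrocyte genes was 96310 to 157900 CPM in OL libraries and 19320 to 27880 CPM in total RNA. Some features of the libraries touched the results. The OL library of naive sample 3 stood apart from the other 2 naive OL libraries: all 10 genes of an astrocyte list were above both of them (sum of 13450 against a mean of 2487 CPM), as were all 7 of a precursor list and 4 of 5 Schwann cell genes (640.1 against 1.67 CPM). The total RNA library of naive sample 3 was also high in Schwann cell genes (176.9 CPM, against 2.72 and 2.00 CPM in samples 1 and 2). It was not high in astrocyte genes (7452 CPM, against 8705 and 8130 CPM). Injured OL libraries held 210.1 to 1526 CPM of these Schwann cell genes. Both libraries of dpi 2 sample 2 held 2414 to 2604 Y-linked counts, against 0 to 13 in the other 22, although the labels give female mice. Finally, 2 libraries of dpi 42 have a title and a description that name different kinds of RNA, and were grouped by the description. Grouped so, they are OL library 1 and total RNA library 2 of dpi 42. Their oligodendrocyte sums, 103500 and 23340 CPM, lay within the OL and the total RNA range given above. Calls of members that changed when the libraries named in this paragraph were left out are given with the results. Microglia and macrophage genes rose in OL RNA at each time point (9 of 9 genes, from 10.7 to 17.2 CPM summed in naive OL to 72.9 to 258.7 CPM after injury), but stayed far below total RNA (1282 to 4713 CPM after injury).

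**Figure D1:**
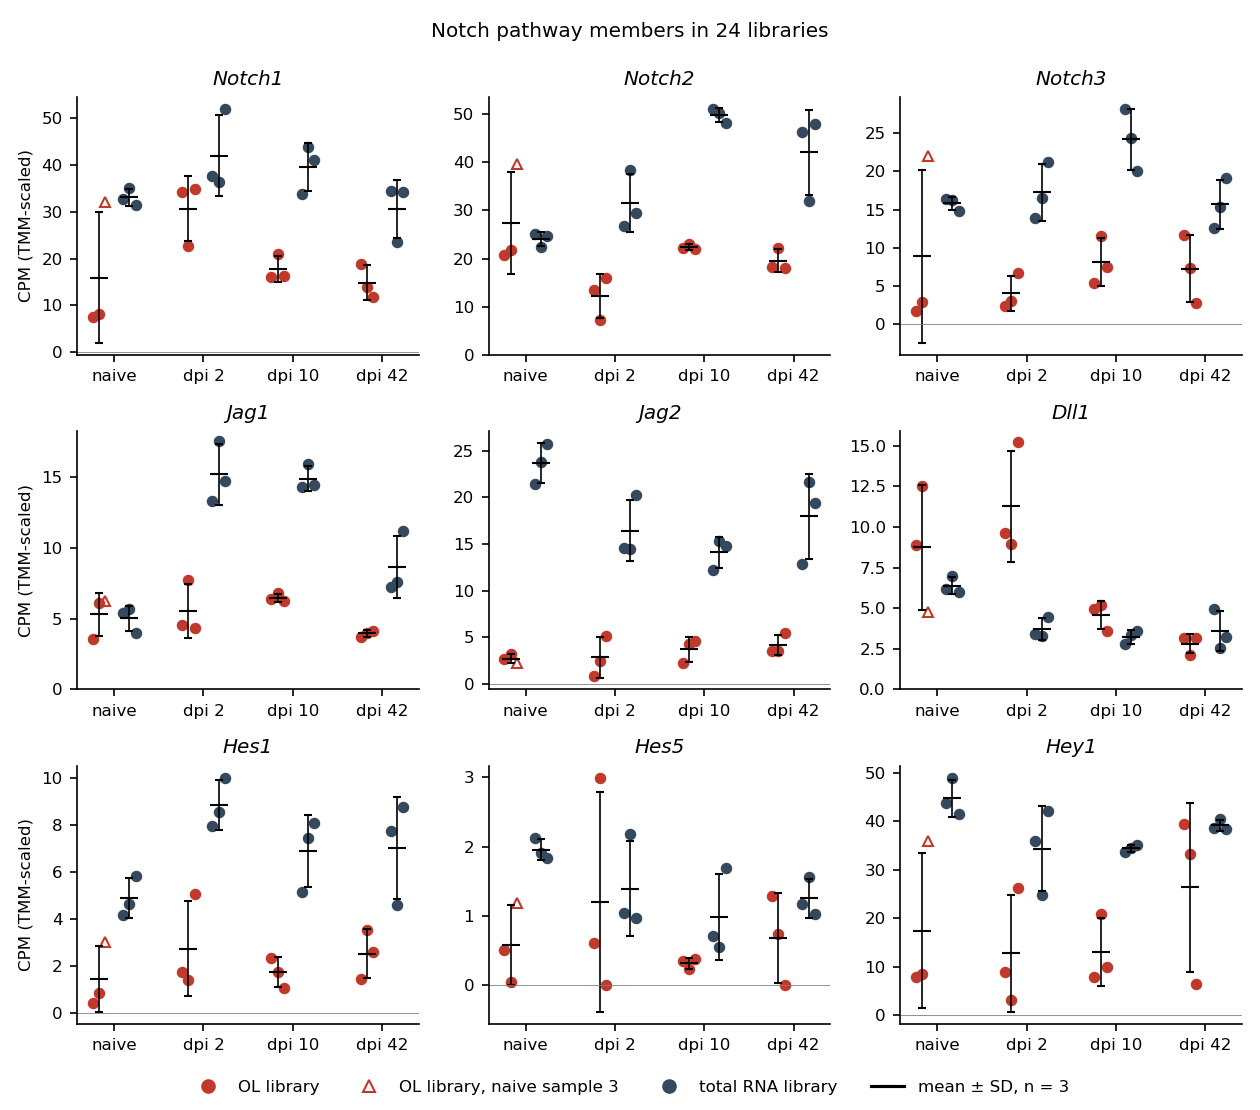
Levels of the 9 members in each of the 24 libraries, as TMM-scaled CPM, by time after injury. Red points are OL and dark points total RNA libraries, the open triangle is the OL library of naive sample 3, and bars give mean ± SD (n = 3). The triangle lies above the other naive OL points for 7 of 9 members and below them for Jag2 and Dll1.

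In the uninjured cord, Jag2, Hes1 and Notch1 were lower in OL RNA than in total RNA, whereas Notch2, Jag1 and Dll1 were near the tissue level (log2 ratios 0.19, 0.083 and 0.45, lowest q 0.264). Of the 9 members, 3 were lower in OL than in total RNA and none was higher, where 30.5% of all genes tested were lower and 24.9% higher (q under 0.05, edgeR quasi-likelihood test with Benjamini-Hochberg adjustment over 17167 genes, as for every q here). Jag2, a ligand of the Jagged family, was the most depleted member: naive OL libraries held 2.69, 3.17 and 2.22 CPM and naive total RNA 21.5, 23.8 and 25.8 CPM. The groups lay far apart, and the log2 ratio of OL to total RNA was -3.14 (SE 0.42, q = 1.61e-06). Hes1, the ubiquitous Notch-responsive repressor, gave 0.42, 0.85 and 3.02 CPM in naive OL and 4.16, 4.64 and 5.83 CPM in total RNA, a log2 ratio of -1.76 (SE 0.57, q = 0.0123). Notch1, the main receptor of the lineage, held 7.52, 8.21 and 32.0 CPM in OL against 32.8, 35.04 and 31.4 CPM in total RNA (log2 ratio -1.05, SE 0.37, q = 0.0194). The high naive OL value of Notch1 is that of sample 3, which overlapped with total RNA. The calls for Notch1 and Hes1 were lost when either of the other 2 naive OL libraries was left out (q up to 0.21 and 0.0979), and when naive libraries were fitted alone (q = 0.172 and 0.0698).

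Without the OL library of naive sample 3, 5 members were lower and 1 was higher in naive OL than in total RNA, beside 29.1% and 28.6% of all genes. Notch3 (log2 ratio -2.61, SE 0.50, q = 0.000122) and Hey1 (log2 ratio -2.28, SE 0.66, q = 0.00506) were then also lower, and Dll1 was higher (log2 ratio 0.91, SE 0.33, q = 0.0239). The Dll1 call was not made when the total RNA library of that sample was left out too (q = 0.134). With each tissue pool as a block, and all libraries kept, the naive log2 ratios were -1.74 for Notch3 (q = 0.0457) and -1.74 for Hey1 (q = 0.0238), both then past the threshold. Scaled to exon length, total RNA of naive cord held most of Hey1 (13.7 ± 1.17 CPM per kb, SD) and least of Jag1 (0.859 ± 0.152 CPM per kb). In naive OL, Hey1 gave 5.35 ± 4.90, Notch2 2.54 ± 0.989, Dll1 2.07 ± 0.918 and Jag2 0.387 ± 0.0685 CPM per kb. The spread of Hey1 covers that of Notch2 and Dll1, so their order in naive OL is not resolved.

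After injury, several members were again lower in OL than in total RNA. On dpi 2, 5 members were lower in OL than in total RNA and 1 was higher, where 28.8% and 24.8% of all genes were. The dpi 10 libraries had 6 members lower and none higher (28.8% and 25.2% of genes), the dpi 42 libraries 5 lower and none higher (28.9% and 24.9%). Jag2 stayed at 0.869 to 5.40 CPM in the 9 OL libraries after SCI and at 12.3 to 21.6 CPM in total RNA, with log2 ratios of -2.54, -1.93 and -2.12 on dpi 2, 10 and 42 (largest q 0.000361). Hes1 was lower in OL at all 3 time points as well (log2 ratios -1.70, -2.001 and -1.48, largest q 0.0297), although the dpi 2 call was lost without OL library 1 or 2 of that day and the dpi 42 call without OL library 1 or 3 or total RNA library 1 or 3 of that day (q up to 0.0583 and 0.115). The dpi 2 call of Hes1 was also lost without both libraries of dpi 2 sample 2 (q = 0.0958), and its dpi 42 call without the 2 libraries of conflicting labels (q = 0.0843). Notch2 and Jag1 were lower in OL at all 3 time points, with log2 ratios of -1.37, -1.15 and -1.11 for Notch2 and -1.46, -1.20 and -1.13 for Jag1 (largest q 0.00106). Notch1 was lower on dpi 10 (-1.15, q = 0.0118) and dpi 42 (-1.04, q = 0.0214). The dpi 10 call of Notch1 was lost without OL library 1 of that day and the dpi 42 call without OL library 2 or 3 or total RNA library 1 or 3 (q up to 0.0514 and 0.0742). Notch3 was lower on dpi 2 (-2.10, q = 0.00967) and dpi 10 (-1.57, q = 0.0407). The Notch3 call on dpi 2 was lost without both libraries of dpi 2 sample 2 (q = 0.0597), and that on dpi 10 without OL library 1 or 3 or any total RNA library of that day (q up to 0.143). Hey1 missed the threshold on dpi 2 and 10 (log2 ratios -1.42 and -1.41, q = 0.0653 and 0.0681), and passed it with the tissue pool as a block (log2 ratios -1.86 and -1.53, q = 0.0176 and 0.0369). Without the OL library of naive sample 3, Hey1 passed on dpi 2 and 10 (log2 ratios -1.48 and -1.37, q = 0.0263 and 0.0368), Notch1 on dpi 2 (-0.51, q = 0.0385) and Notch3 on dpi 42 (-1.11, q = 0.0212), all lower in OL. The dpi 10 ratio of Hey1 also passed without both libraries of dpi 2 sample 2 (q = 0.0441). The sum of 8 neuronal genes, which like Jag2 was low in OL, was 625.4 to 1407 CPM in OL and 4343 to 10840 CPM in total RNA, and its part in the Jag2 values was not tested.

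**Figure D2:**
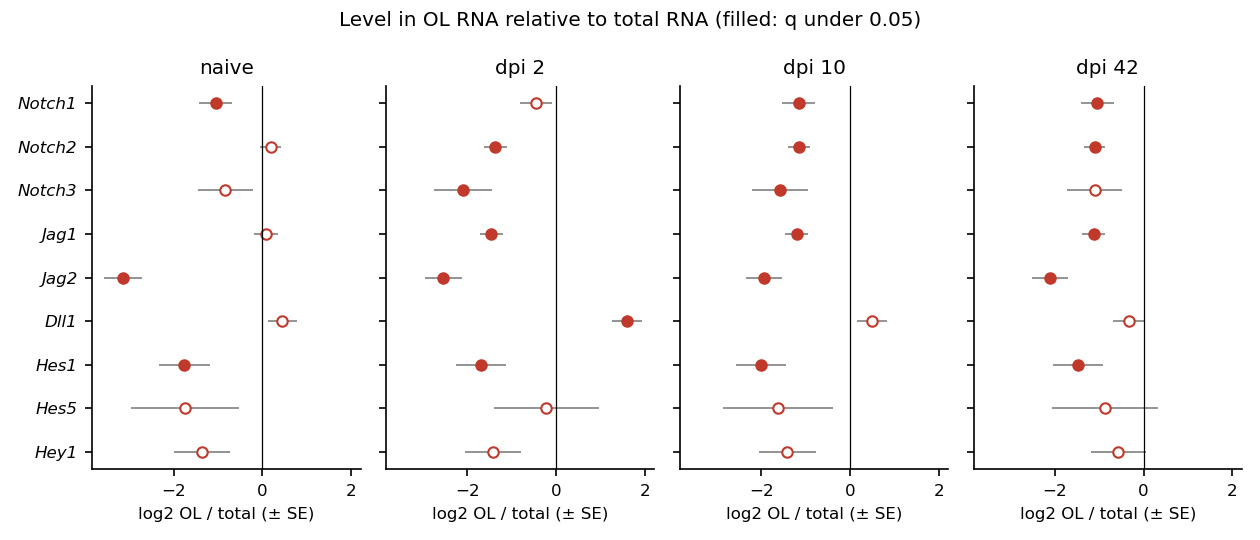
Log2 ratio of OL to total RNA for the 9 members in naive cord and on dpi 2, 10 and 42, with SE bars, filled where q was under 0.05. Jag2 and Hes1 are left of 0 in the 4 groups, Notch2 and Jag1 are near 0 in naive cord and left of it after SCI, and Dll1 is to the right of 0 on dpi 2 (1.60).

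The question of the injury comparison was which members changed in OL RNA relative to naive OL RNA. The paper reports RNA of other cells in OL RNA after SCI. It kept only changes with differential or constantly high OL enrichment, a filter not used here. Using all libraries, Notch1 rose and Notch2 fell on dpi 2, no member passed the test on dpi 10, and Dll1 fell by dpi 42. As background, 18.4% of genes were up and 20% down on dpi 2. The same shares were 9.62% and 8.59% for dpi 10, then 16.2% and 16.9% for dpi 42, and the counts of members called did not exceed these shares. On dpi 10 no member had q under 0.05 in edgeR, 1 had an unadjusted p under 0.05, and DESeq2 called 1.

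Notch2, the receptor nearest to the tissue level in naive OLs, fell in OLs on dpi 2. Its OL libraries held 20.8, 21.7 and 39.7 CPM in naive cord and 13.6, 7.21 and 15.9 CPM on dpi 2, every injured library being below every naive one. The log2 change was -1.17 (SE 0.25, q = 0.000807), a level 0.446 times the naive one, and leaving out any 1 library kept the call (log2 changes -1.45 to -0.86). With naive OL 3, dpi 2 sample 2 and the 2 dpi 42 libraries of conflicting labels all left out, called the doubted libraries here, the change was smaller, at -0.53 (SE 0.135, q = 0.00471), a level 0.693 times the naive one. Fitted on these 6 libraries alone, the change was -1.11 with q = 0.0693. By dpi 10 OL Notch2 was back at 22.1, 23.1 and 22.1 CPM, above all 3 dpi 2 libraries (log2 change from dpi 2 of 0.87, SE 0.25, q = 0.0141). That difference was not called without the OL library of dpi 2 sample 2 (q = 0.0537). On dpi 42 it held 18.2, 22.3 and 18.1 CPM, and neither late time point passed the test against naive (q = 0.473 and 0.138).

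Notch1 rose in OL RNA on dpi 2 at the edge of the threshold, and the size of the rise hung on the OL library of naive sample 3. With all libraries, this change was not told apart from that in total RNA (log2 difference 0.60, SE 0.515, q = 0.523). Against the naive values given above, dpi 2 OL libraries held 34.3, 22.6 and 34.97 CPM, so 2 of 3 lay above the highest naive library (log2 change 0.94, SE 0.37, q = 0.0486). The call was lost in 22 of the 24 fits that left out 1 library (q up to 0.267), and without the 2 dpi 42 libraries of conflicting labels (q = 0.0509). Without the OL library of naive sample 3 the increase was larger and held at each time point, with log2 changes of 1.90 (SE 0.25, q = 3.12e-06), 1.18 (SE 0.24, q = 0.00136) and 0.86 (SE 0.24, q = 0.00747) on dpi 2, 10 and 42. Such comparisons rest on naive OL 1 and 2 alone. Schwann cell genes summed to 1.597 and 1.735 CPM there, and to 210.1 to 1526 CPM in injured OL libraries. Astrocyte genes summed to 2594 and 2380 CPM there, and to 2557 to 15540 CPM in injured OL libraries. These limits hold for each OL change given without that library, and the part of such cells was not tested. Using all libraries, dpi 10 (16.1, 21.1 and 16.3 CPM) and dpi 42 (18.95, 13.9 and 11.9 CPM) did not differ from naive OL beyond the spread (q = 0.858 and 0.93). Notch1 in these libraries lay above naive OL 1 and 2 and below naive OL 3.

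Notch3, the receptor of pericytes and smooth muscle, held 1.72, 2.92 and 21.96 CPM in naive OL, with the third library far above the other 2. Its OL libraries of dpi 2 (2.42, 3.00 and 6.66 CPM), dpi 10 (5.44, 11.5 and 7.46 CPM) and dpi 42 (11.6, 7.39 and 2.82 CPM) all lay between these extremes. With all libraries no change was called (log2 changes -1.14, -0.13 and -0.29, lowest q 0.173). The changes turned direction without the OL library of naive sample 3, to 0.73 on dpi 2 (SE 0.48, q = 0.249), 1.81 on dpi 10 (SE 0.49, q = 0.0113) and 1.58 on dpi 42 (SE 0.48, q = 0.0141). With all doubted libraries left out, the dpi 42 change was not called (1.14, q = 0.0967), while that of dpi 10 was (1.81, q = 0.00975). The summed level of 9 pericyte and smooth muscle genes was 6.13 to 18.8 CPM in naive OL, with the highest value in sample 3, and 35.3 to 376.5 CPM in injured OL libraries, where 4, 4 and 5 of the 9 genes rose on dpi 2, 10 and 42 and 1 fell on dpi 2. In these libraries 2 pericyte genes were at 0 in whole groups, Abcc9 on dpi 2 and Higd1b on dpi 10 and 42. The sums of the 9 genes were 110.8, 68.1 and 376.5 CPM in dpi 2 OL libraries 1, 2 and 3. Astrocyte genes summed to 2594, 2380 and 13450 CPM in naive OL libraries 1, 2 and 3. In those of dpi 42 they summed to 15540, 13500 and 2943 CPM. The part of the cells of either list in the Notch3 values was not tested.

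**Figure D3:**
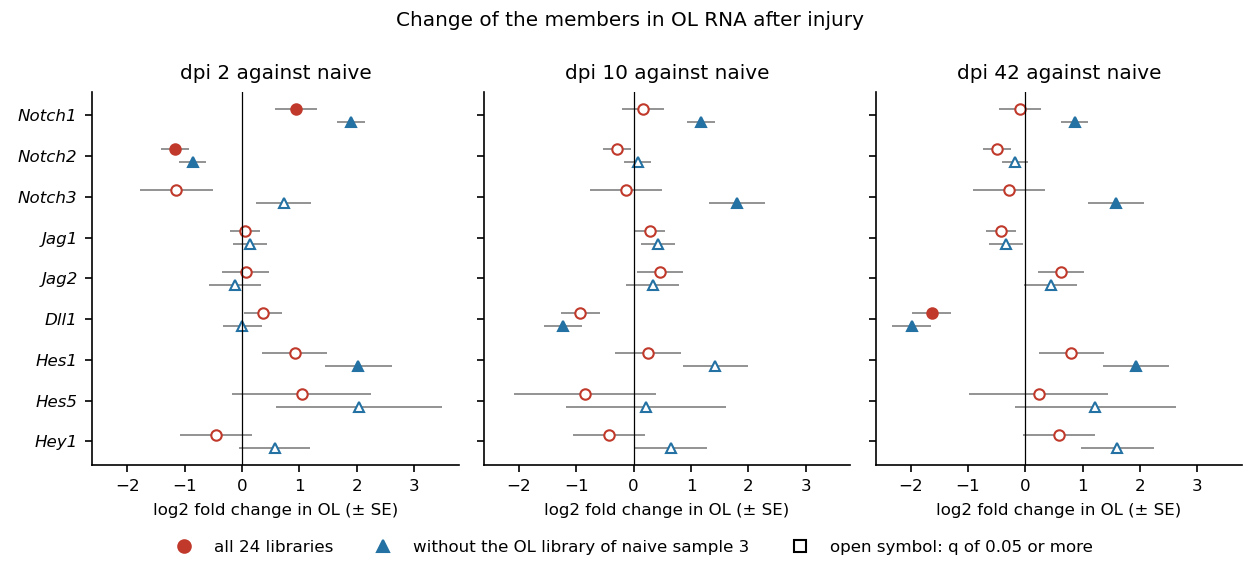
Log2 change of each member in OL RNA on dpi 2, 10 and 42 relative to naive OL, with SE bars. Circles use all 24 libraries, triangles leave out the OL library of naive sample 3, and filled symbols have q under 0.05; Notch2 on dpi 2 and Dll1 on dpi 42 are filled in both, while Notch3 changes sides of 0.

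Among the ligands, Dll1 showed a late fall in OLs. Dll1, a Delta-like ligand, held 8.91, 12.5 and 4.78 CPM in naive OL, 9.64, 8.95 and 15.2 CPM on dpi 2, 4.93, 5.21 and 3.58 CPM on dpi 10, and 3.18, 2.13 and 3.13 CPM on dpi 42. All dpi 42 libraries were below all naive ones (log2 change -1.63, SE 0.35, q = 0.000962), a level 0.323 times that of naive OL, and leaving out any 1 library kept this call (log2 changes -1.98 to -1.34). With all libraries, this dpi 42 fall was not told apart from the total RNA change of -0.84 (q = 0.0809). The log2 difference was -0.79 (SE 0.476, q = 0.368). On dpi 10 the log2 change in OL was -0.93 (SE 0.34, q = 0.0609) with all libraries and -1.23 (q = 0.0115) without the OL library of naive sample 3. Between time points, Dll1 fell from dpi 2 to dpi 10 (log2 change -1.30, SE 0.34, q = 0.00782) and was still lower on dpi 42 than on dpi 2 (-2.001, SE 0.35, q = 0.000364), while dpi 42 and dpi 10 were not resolved (q = 0.223). The fall from dpi 2 to dpi 10 was not called without the third OL library of either day (q up to 0.0603). The Dll1 levels of dpi 2 and naive OL were not told apart (q = 0.422). By its mean dpi 10 lay between these and dpi 42. With all libraries it was resolved neither from naive (q = 0.0609) nor from dpi 42 (q = 0.223). Dll1 was also the only member above the tissue level after injury: on dpi 2 all OL libraries were above the total RNA ones (3.42, 3.26 and 4.47 CPM), with a log2 ratio of 1.60 (SE 0.34, q = 0.000469).

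Across these OL time points, 22.3% of all genes differed between dpi 10 and dpi 2 and 2 members did (Notch2 and Dll1). Between dpi 42 and dpi 2 it was 17.6% of genes and 1 member (Dll1), and between dpi 42 and dpi 10 it was 7.18% of genes and no member. Without the OL library of naive sample 3, which these pairs do not hold, Notch1 was called lower on dpi 10 than on dpi 2 (log2 change -0.72, q = 0.0122) and lower on dpi 42 than on dpi 2 (-1.04, q = 0.00105), and Notch2 higher on dpi 42 than on dpi 2 (log2 change 0.68). For dpi 42 against dpi 10 with all libraries, 1 member (Jag1) had an unadjusted p under 0.05 and DESeq2 called none.

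Jag1 and Jag2 did not pass the test in OLs at any time point. Jag1, the Jagged ligand known from astrocytes and vessel walls, held 3.53, 6.09 and 6.27 CPM in naive OL and 4.54, 7.74 and 4.32 CPM on dpi 2. Its OL libraries on dpi 10 (6.41, 6.77 and 6.24 CPM) and dpi 42 (3.71, 4.00 and 4.15 CPM) overlapped with naive OL. The log2 changes of Jag1 in OL ranged from -0.42 to 0.29, each with an SE of 0.26. Jag2 in OL ranged from 0.869 CPM on dpi 2 to 5.40 CPM on dpi 42 (lowest q 0.264).

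The target genes Hes1 and Hes5 were low in OLs and scattered between replicates. Hes1 in OL held 1.74, 1.38 and 5.05 CPM on dpi 2, 2.33, 1.75 and 1.07 CPM on dpi 10, and 1.43, 3.51 and 2.58 CPM on dpi 42. No Hes1 change was called with all libraries (lowest q 0.219). Without the OL library of naive sample 3, Hes1 rose on dpi 2 (log2 change 2.03, SE 0.58, q = 0.00773) and dpi 42 (1.92, SE 0.58, q = 0.0125), against the remaining naive libraries of 10 and 20 counts. With all doubted libraries left out, its dpi 10 change was called too (1.43, q = 0.0477). With that library left out, the OL comparison thus called 2 members up and 1 down on dpi 2 (17.3% and 21.8% of genes), 2 up and 1 down on dpi 10 (10.4% and 9.25%), and 3 up and 1 down on dpi 42 (16.2% and 19.8%).

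Hes5, the target best known from neural stem cells and astrocytes, had few counts in OLs. It had 12, 1 and 31 counts in the naive OL libraries. The dpi 2 libraries held 16, 74 and 0 counts, those of dpi 10 held 9, 6 and 10, and those of dpi 42 held 37, 20 and 0. A count of 0 in the third libraries of dpi 2 and dpi 42 allows up to 0.115 and 0.117 CPM (3 counts, counting error only). At these counts the SE of the log2 change was 1.21 to 1.24 and no change in OL was detectable. Hey1, a Hes-related repressor, ranged in OL from 3.12 to 39.4 CPM, with no time point called (lowest q 0.526).

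Hey1 was high in the OL libraries that held the most astrocyte RNA. The 12 OL libraries fell into 5 with an astrocyte sum of 8029 to 15540 CPM (naive OL 3, dpi 2 OL 3, dpi 10 OL 2, and dpi 42 OL 1 and OL 2) and 7 with 2380 to 4224 CPM. These 5 libraries held 20.96 to 39.4 CPM of Hey1 and the other 7 held 3.12 to 10.0 CPM, with no overlap. They were also 4 of the 5 highest libraries for Notch3 (6.66 to 21.96 CPM, against 1.72 to 7.46 CPM in the other 7). For Dll1 only 1 of the 5 was among its 5 highest libraries, and for Jag1 2 were. Since the libraries come from different groups and fall into separate clusters, no correlation is given, and the part of the astrocyte RNA in the members' values was not tested. Precursor genes were high in the same 5 libraries (160.7 to 219.2 CPM summed, against 57.4 to 108.9 CPM). In total RNA the astrocyte sum was 7397 to 9959 CPM over all groups. Naive OL 3, dpi 2 OL 3 and dpi 42 OL 1 and OL 2 lay above that range, and dpi 10 OL 2 lay within it.

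**Figure D4:**
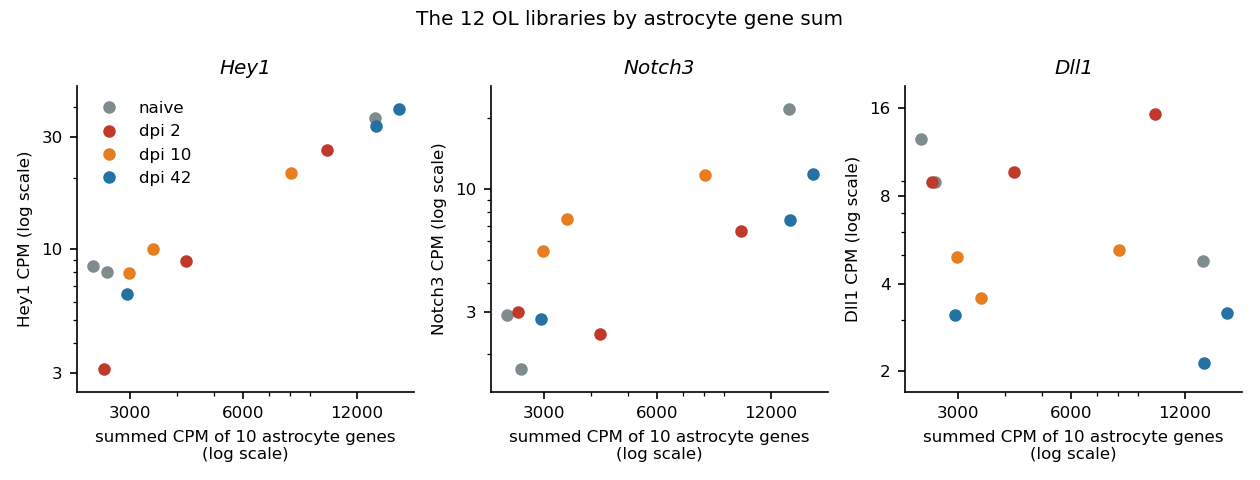
Hey1, Notch3 and Dll1 levels (CPM, log scale) in the 12 OL libraries against the summed CPM of 10 astrocyte genes (log scale), coloured by time after injury. The 5 libraries with sums of 8029 CPM and above hold 20.96 CPM or more of Hey1, and Dll1 does not follow this order.

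In total RNA, Jag1 and Notch2 rose and Dll1 fell. Jag1 in total RNA held 5.38, 5.64 and 3.99 CPM in naive cord and 13.3, 17.5 and 14.7 CPM on dpi 2, with all injured libraries above all naive ones (log2 change 1.60, SE 0.27, q = 5.7e-05), a level 3.03 times the naive one. It remained high on dpi 10 (14.3, 15.9 and 14.4 CPM, log2 change 1.57, SE 0.26, q = 9.48e-05) and was intermediate on dpi 42 (7.21, 7.55 and 11.2 CPM, log2 change 0.79, SE 0.26, q = 0.0335). In total RNA Jag1 was lower on dpi 42 than on dpi 2, at the edge of the threshold (log2 change -0.81, q = 0.0474), a call lost in 11 of 24 fits without 1 library (q up to 0.196). Notch2 in total RNA went from 25.2, 22.4 and 24.8 CPM in naive cord to 51.1, 50.3 and 48.1 CPM on dpi 10 (log2 change 1.05, SE 0.25, q = 0.00225) and 46.4, 31.9 and 47.9 CPM on dpi 42 (log2 change 0.80, SE 0.25, q = 0.0213). On dpi 2 it held 26.8, 38.4 and 29.4 CPM (log2 change 0.39, q = 0.231). Without the OL library of naive sample 3, which this pair does not hold, the change was called (0.54, q = 0.0491). In that fit the median log2 change of all genes also moved, from -0.103 to 0.0185. The dpi 2 change was not called without both libraries of that sample (0.41, q = 0.211) or without all doubted libraries (0.22, q = 0.167). Dll1 fell on dpi 10 (from 6.20, 6.96 and 5.99 to 2.76, 3.32 and 3.59 CPM, log2 change -0.99, SE 0.34, q = 0.0294). That Dll1 call was lost in 17 of 24 fits without 1 library (q up to 0.104). In the same total RNA comparison 7 of 8 neuronal genes fell (median log2 change -1.01, summed 10070 to 10840 CPM in naive cord and 4480 to 4930 CPM on dpi 10), and their part in the Dll1 value was not tested. The dpi 42 calls of Notch2 and Jag1 were lost without any single naive total RNA library or without the third dpi 42 one, and that of Notch2 also without the first dpi 42 one (q up to 0.0908 and 0.198).

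The members called in total RNA were thus 1 up and none down on dpi 2, beside 16.4% and 20.8% of genes. They were 2 up and 1 down at dpi 10 (13.9% and 18.2%), then 2 up and none down at dpi 42 (10.4% and 12.1%). In such bulk samples, more or fewer cells of a type and more or less RNA per cell cannot be told apart. Genes of several other cell types rose in the same total RNA libraries: 9 microglia and macrophage genes summed to 183.1 to 215.3 CPM in naive cord and 1282 to 4713 CPM after SCI, and 6 fibroblast genes to 108.9 to 125.2 and 490.6 to 2407 CPM. The 9 pericyte and smooth muscle genes summed to 112.9 to 138.9 CPM in naive and 265.7 to 439.3 CPM in injured total RNA. Their part in the rise of Jag1 and Notch2 was not tested. With all libraries, Notch1, Notch3, Jag2, Hes1, Hes5 and Hey1 passed no test of change from naive in total RNA. In this fit OL and total RNA libraries share the estimate of spread. Fits of only the groups compared made more total RNA calls, as counted below. On dpi 10 all Jag2 libraries (12.25, 15.3 and 14.7 CPM, q = 0.153) lay below all naive ones. The same held for Hey1 (33.7, 34.5 and 35.1 CPM, q = 0.696), while Notch1 on dpi 2 lay above all naive libraries (q = 0.496). With all doubted libraries left out, Notch1 was called on dpi 2 (log2 change 0.44, q = 0.0383). Hes1 lay at 7.95 to 10.0 CPM on dpi 2, above the naive 4.16 to 5.83 CPM, with q = 0.236.

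Since Notch2 and Jag1 moved differently in OL and in total RNA, the difference of the 2 changes was tested directly. For both members the ratio of OL to total RNA was lower than in naive cord at each time point, and no other member passed. The log2 difference for Notch2 was -1.55 (SE 0.35, q = 0.00436) on dpi 2, -1.34 (SE 0.35, q = 0.02) on dpi 10 and -1.29 (SE 0.35, q = 0.0245) on dpi 42. For Jag1 it was -1.54 (SE 0.37, q = 0.00714), -1.28 (SE 0.37, q = 0.0362) and -1.21 (SE 0.37, q = 0.0487). On each day 2 members were thus lower and none higher, beside 6.03% of genes lower and 8.06% higher on dpi 2. These shares were 3.09% and 4.57% for dpi 10, then 3.47% and 4.37% for dpi 42. The 3 comparisons share the naive libraries. The tissue pool as a block pairs OL and total RNA by the column names, and on dpi 42 libraries of 1 pool were no more alike than others. With this block, dpi 2 kept both calls (log2 difference -1.53, q = 0.0152 for Notch2, and -1.55, q = 0.016 for Jag1). The dpi 10 and dpi 42 calls were then lost at nearly the same size for Notch2 (-1.27, q = 0.0514, and -1.21, q = 0.0633) and Jag1 (-1.26, q = 0.0645, and -1.16, q = 0.0853). Leaving out the OL library of naive sample 3 ended the dpi 10 call of Jag1 (q = 0.0517) and no other of the 6, and added Notch1 on dpi 2 (log2 difference 1.41, q = 0.00319). Without both libraries of that sample, the calls left were Notch2 on dpi 2 (-1.21, q = 0.0229) and Notch1 on dpi 2 (1.65, q = 0.00272), with Jag1 on dpi 2 at -1.26 (q = 0.0515). With all doubted libraries left out, the Notch2 difference on dpi 2 was smaller (-0.75, q = 0.00885), Notch1 was called on dpi 2 and 10 (1.701 and 0.92, q = 0.00022 and 0.0118), and Jag1 on dpi 42 was not (q = 0.0744). The latter was also lost without the 2 dpi 42 libraries of conflicting labels (q = 0.0857). Among fits without 1 library, the dpi 42 call of Jag1 was lost in 13 of 24 (q up to 0.155), its dpi 10 call in 9 (q up to 0.107), and those of Notch2 in 4 and 1 (q up to 0.0719 and 0.0546).

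The other genes of the pathway, a list of 48 chosen by role, all passed the filter. In OL RNA, dpi 2 had 10 of them higher and 13 lower than naive, dpi 10 had 6 higher and 8 lower, and dpi 42 had 8 higher and 12 lower, with medians of -0.0938, -0.155 and -0.125 on the log2 scale beside a median of 0 over all genes. The shares of all genes called are those given above for the same comparisons. In the test of the difference between OL and total RNA, 5, 2 and 2 were higher and 9, 2 and 5 lower on dpi 2, 10 and 42. The receptor-cutting proteases and the noncanonical ligands are described first.

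Of 9 sheddase and gamma-secretase genes, 7 were higher and 1 was lower in naive OL than in naive total RNA. After injury, the genes of this group that fell in OL were 5, 3 and 5 in number (dpi 2, 10 and 42), and 1 rose each time. Adam10, the main Notch sheddase, held 342.1, 330.7 and 269.2 CPM in naive OL against 103.5, 94.0 and 95.0 CPM in total RNA, and fell in OL to 106.9, 125.8 and 180.4 CPM by dpi 42. All injured OL libraries lay below the naive ones, with log2 changes of -0.53 (q = 0.00413), -0.58 (q = 0.00501) and -1.19 (SE 0.14, q = 2.49e-06) on dpi 2, 10 and 42. Adam17, a related sheddase, moved oppositely in OL and tissue: on dpi 42 its log2 change was -1.01 (SE 0.14, q = 1.11e-05) in OL and 0.86 (SE 0.14, q = 0.000113) in total RNA. The difference was -1.63, -1.75 and -1.87 on dpi 2, 10 and 42 (largest q 1.11e-05). Psenen, a subunit of gamma-secretase, rose in OL (log2 changes 0.69, 0.48 and 0.76, largest q 0.0101), but on dpi 2 and 42 this turned to -0.15 and -0.07 with an offset for gene length and GC content, so its direction rests on the scaling.

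The noncanonical ligands Dlk1 and Dlk2 rose in OL RNA on dpi 2. Dlk2 held 1.64, 1.69 and 0.803 CPM in naive OL and 13.3, 16.04 and 8.80 CPM on dpi 2, a log2 change of 3.21 (SE 0.43, q = 4.44e-06). It stayed high on dpi 10 and dpi 42 (log2 changes 3.01 and 2.58, largest q 7.72e-05), and in total RNA no change of Dlk2 passed the test (lowest q 0.0919). Dlk1 rose from 3.57, 5.58 and 5.09 to 18.4, 14.7 and 18.2 CPM on dpi 2 in OL (log2 change 1.85, SE 0.20, q = 3.24e-07) and fell in total RNA (-0.99, SE 0.19, q = 0.000236). OL Dlk1 on dpi 2 was still below total RNA of that day (53.8, 46.4 and 53.4 CPM), and on dpi 10 and 42 it did not pass the test against naive OL (q = 0.974 and 0.539).

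Of the other roles, the remaining receptor Notch4 rose in OL on dpi 2 (log2 change 2.41, SE 0.59, q = 0.00243) and dpi 42 (1.55, q = 0.0444), the latter call being lost in 18 of 24 fits without 1 library (q up to 0.2). Notch4, known from endothelial cells, also rose in total RNA on dpi 2 (1.75, q = 0.0145) and was lower in OL than in total RNA in all 4 groups (log2 ratios -2.46 to -1.48), with no differential call. Of 9 endothelial genes, 6 rose and 1 fell in OL RNA on dpi 2 (summed 11.1 to 14.6 CPM in naive OL and 16.5 to 25.7 CPM on dpi 2) and 6 rose in total RNA, and their part in the Notch4 values was not tested. In the nuclear complex, Snw1, a coactivator, and Spen, a corepressor partner of RBPJ, fell in OL at all 3 time points (log2 changes of -0.84, -0.36 and -0.41 for Snw1, and -1.31, -0.76 and -1.11 for Spen). The dpi 10 call of Spen was lost without naive OL 1 or dpi 10 OL 2 (q up to 0.0695). Among target genes, Hes6 rose on dpi 2 and dpi 42 (log2 changes 0.74 and 0.90), but with the length and GC offset neither passed (q = 0.646 and 0.388). Hes3 rose on dpi 2 (1.80, q = 0.0226), a call lost without any 1 of 5 libraries (q up to 0.081). Heyl fell on dpi 2 (-1.98, q = 0.00921), a call lost without the OL library of naive sample 3 (q = 0.106). None of the 7 target genes in this list was called in the difference between OL and total RNA on dpi 2, 10 or 42. Among ubiquitin ligases, Dtx3l rose at each time point (1.58, 1.71 and 1.35, largest q 0.0105), Itch fell at each time point (-1.29, -0.85 and -1.32, largest q 9.97e-05) and Mib1, which acts on ligands, also fell (-0.43, -0.62 and -0.87), although its dpi 2 value became 0.07 with the length and GC offset. The dpi 42 call of Dtx3l was lost without naive OL 1 or 2 or dpi 42 OL 1 (q up to 0.0776). Neurl1b, another ligase for ligands, had 1, 2 and 1 counts in naive OL and 41, 32 and 41 on dpi 2.

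Smaller changes passed the test in the rest of the list. Numbl, a Numb relative, rose in OL at each time point (log2 changes 0.63, 0.59 and 0.72), and Dtx3 rose on dpi 42 (0.61, q = 0.000198). Maml3, a Mastermind coactivator, rose on dpi 2 (0.82), the fringe glycosyltransferase Mfng on dpi 10 (1.96, q = 0.0324) and Hey2 on dpi 42 (1.41, q = 0.046). Falls were called on dpi 2 for the noncanonical ligand Dner (-1.71, q = 8.5e-05), Mib2 (-0.48) and Dtx4 (-0.75), and on both dpi 2 and dpi 42 for the gamma-secretase genes Ncstn (-0.41 and -0.32) and Aph1b (-0.84 and -0.52). Fbxw7 fell on dpi 10 (-0.40), and Maml1 (-0.52) and Numb (-0.62) on dpi 42. Pofut1 and Poglut1, which add sugars to Notch, were called on dpi 2 only in the difference between OL and total RNA (-0.72 and 0.45, q = 0.0345 and 0.027). Several of these calls rested on single libraries. The Hey2 call was lost in 19 of 24 fits without 1 library (q up to 0.216), that of Numbl on dpi 10 in 14 (q up to 0.134) and that of Poglut1 in 15 (q up to 0.504). Between 1 and 5 of the 24 fits lost the calls of Numbl on dpi 2 and 42, Maml3, Mfng, Dtx4, Fbxw7, Maml1, Numb, Pofut1 and, on dpi 42, Ncstn, in each case without a library of the groups compared. Without 1 library Numbl ranged from 0.167 to 0.748 on dpi 2, Maml3 from 0.361 to 1.06 and Dtx4 from -1.15 to -0.306 (log2 changes). The calls of Dner, Mib2, Aph1b, Dtx3 and, on dpi 2, Ncstn were kept in all 24 fits.

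**Figure D5:**
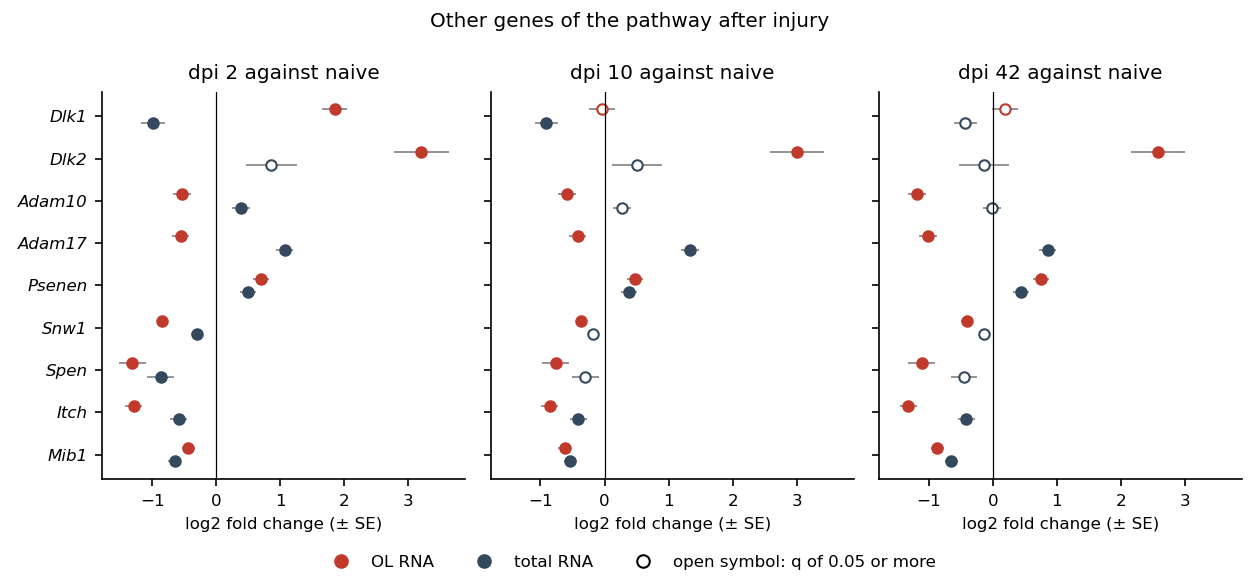
Log2 change from naive of 9 other pathway genes on dpi 2, 10 and 42, in OL RNA (red) and total RNA (dark), with SE bars, filled where q was under 0.05. Adam17 falls in OL and rises in total RNA, and Dlk2 rises by 2.58 or more on the log2 scale in OL on each day.

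As a description of the members' profiles, the 3 genes with the most similar log2 CPM over all 24 libraries (Pearson r) were looked up for each member, and 2 of the 3 are given for Dll1 and Hes5. For the receptors they were Chl1 (0.934), Dusp6 (0.918) and Sorcs2 (0.917) for Notch1, Sned1 (0.919), Dtx4 (0.917) and Irak2 (0.89) for Notch2, and Egfr (0.953), Serpinb9 (0.95) and Smpdl3a (0.942) for Notch3. Jag1 was most like Apcdd1 (0.948), Iqgap1 (0.916) and Clec4n (0.906), Jag2 most like 4930452B06Rik (0.974), Rasl10b (0.964) and Ipcef1 (0.961), and Dll1 most like Tial1 (0.85) and Lrch2 (0.809). Among the targets, Hes1 came with Abcg2 (0.932), Slc18b1 (0.926) and Lasp1 (0.922), Hes5 with Ccdc122 (0.805) and Mob4 (0.792), and Hey1 with Tmem47 (0.975), Jam2 (0.972) and Gabrb1 (0.969). These points share the kind of RNA and the depth of the libraries, and the values given for Hes5 and Dll1 were below those given for the other 7 members.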

How the data were processed

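Raw counts per gene were deposited by the authors for 24 libraries, made with STAR and HTSeq 0.10.0 on mm10 after FastQC 0.10.1, per the study's methods and the labels. Strand setting, annotation release and treatment of multiply mapped reads are not given in the sources used here. Libraries were grouped by their labels (8 groups of 3), and no column was left out. The 17167 of 21965 genes whose counts summed to 10 or more were fitted with edgeR 4.0.16 in R 4.3.3 (TMM, quasi-likelihood, 1 mean per group), with Benjamini-Hochberg q over all 17167 genes, called at q under 0.05 with no limit on fold. Changes from naive, OL against total RNA, and the difference of both (differential OL enrichment) were contrasts of this fit. SE is the log2 value over the root of F. CPM used TMM-scaled library sizes. Alternatives were DESeq2 1.42.0, other scalings and filters, a length and GC offset, fits of only the groups compared, replicate blocks, and leaving out each library. By the column names, OL and total RNA libraries of 1 pool came from the same mice. Their deviations correlated at 0.11 to 0.217 in naive cord, and those of different pools at -0.183 to 0.0933. On dpi 42 these values were -0.0525 to 0.00658 within pools and -0.0353 to 0.0323 between them, so no pairing was seen there. Scripts were tested on simulated counts. The text names the 9 members, those of 48 pathway genes called in OL change or differential OL enrichment, and the 3 genes most like each member, apart from a few genes that are not reported here. Members and lists were chosen with earlier results of these data known. Counts of 0 and intervals cover counting error only.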

Additional observations from a re-analysis of the deposited data

Results flagged for a closer look

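Notch2 and Jag1 changed differently in OL and in total RNA of the same cords, by a test of the difference itself (edgeR quasi-likelihood test, q over all genes). The fit behind this test did not pair the OL and total RNA libraries of a pool. For Notch2 the log2 difference was -1.55 on dpi 2, -1.34 on dpi 10 and -1.29 on dpi 42 (q = 0.00436, 0.02 and 0.0245). For Jag1 it was -1.54, -1.28 and -1.21 (q = 0.00714, 0.0362 and 0.0487). On dpi 2 the Notch2 difference joined a fall in OL to no called change in total RNA, and the Jag1 difference joined no called change in OL to a rise in total RNA. The dpi 10 and dpi 42 values were not called with the tissue pool as a block. Without both libraries of naive sample 3, the Notch2 difference was called on dpi 2 alone (q = 0.0229). That of Jag1 was then called on no day (q = 0.0515 on dpi 2).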

How the results depend on the processing

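The counts below are calls of the 9 members summed over the comparisons of a kind. In OL changes from naive 3 calls became 1 when only the groups compared were fitted, and 10 without both libraries of naive sample 3 or without all doubted libraries; leaving out 1 library gave 2 to 10, the highest without naive OL 3. In total RNA 6 calls became 17 with only the groups compared, and 3 to 7 without 1 library. The 20 calls of OL against total RNA stayed within 1.5 times. The 6 differential calls became 2 with the tissue pool as a block, 2 without both libraries of naive sample 3, and 2 to 6 without 1 library. Between OL time points, 3 calls became 5 with DESeq2 or the length and GC offset, 6 without both libraries of naive sample 3 or all doubted libraries, and 2 to 6 without 1 library. Between total RNA time points 1 call became 0 with DESeq2 size factors, with every gene with a count, or without the conflicting dpi 42 libraries, 4 with only the groups compared, 2 without all doubted libraries, and 0 to 1 without 1 library. The 57 pathway calls in OL became 36 with only the groups compared. A block by replicate number gave 2 calls in OL and 4 in total RNA on dpi 2 and 10, as without it. Same numbers correlated at -0.212 to 0.33 and different numbers at -0.247 to 0.295, so that numbers were not taken to pair samples across groups.

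Some log2 values changed sign. Notch1 in OL on dpi 10 ranged from -0.18 to 1.18 without 1 library, below 0 without naive OL 1 or 2. On dpi 42 it became 0.0049 with library sizes alone, 0.30 with the length and GC offset, -0.49 to 0.86 without 1 library, 0.92 without both libraries of that sample and 0.71 without all doubted libraries. Notch3 in OL on dpi 10 became 0.61 with the number block, 1.81 without both libraries of sample 3 or all doubted libraries, and -0.62 to 1.81 without 1 library. On dpi 42 it became -0.85 to 1.58 without 1 library, 1.65 without both libraries of sample 3 and 1.14 without all doubted libraries. The naive ratio of Dll1 became -0.080 with library sizes alone. With the length and GC offset, Psenen in OL became -0.15 on dpi 2 and -0.069 on dpi 42, and Mib1 0.070 on dpi 2. The cause was not tested. Over 58 member results, 1890 values kept direction and side of the threshold, 144 lost the call, 82 gained it and 17 changed sign. Leaving out both libraries of naive sample 3, and all doubted libraries together, were alternatives chosen after seeing the data.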
